A study of Mus musculus with 15 samples.

Results

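Collagen genes were followed in mouse embryonic stem cells (mESC) during a conditional knockdown of Smarcb1, which belongs to the core of the BAF remodellers of chromatin. They were chosen by their symbol, as every listed gene named Col, a number, a and a number, which gave 44 of 55228 genes. A mean of at least 10 reads over the 15 libraries was reached by 24 of these 44 genes and by 16370 genes in all. The cells were the line 81K1, derived from OG2, in which 1 clone with a modified Rosa26 locus received an expression cassette for an shRNA against Smarcb1 behind a doxycycline-dependent promoter. All groups carried the cassette and were kept on gelatine with LIF. The kd groups received 1 µg doxycycline per ml of medium daily and were sampled after 48 h, 72 h and 240 h. The ctrl groups were not treated and were sampled at 48 h and 240 h. Each of the 5 groups had 3 libraries. A doxycycline-treated line without the shRNA was not analysed here, so the effect of the drug and that of the shRNA cannot be told apart. A 72 h ctrl group was not analysed here either. The 72 h kd libraries were set against 48 h ctrl, from which they differ in time in culture as well as in knockdown, and these cannot be told apart. The labels do not say that the 3 libraries of a group came from separate cultures, and p-values measure the spread between these libraries only.

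Collagens are secreted or membrane-bound proteins whose chains wind into triple helices. Fibrillar collagens (types I, II, III, V, XI and others) build fibres, type IV chains form the sheet-like network of basement membranes, and FACIT collagens (types IX, XII, XIV, XVI, XX and XXII among others) sit on the surface of fibrils. Type VI forms beaded filaments, type VII anchors epithelial basement membranes to the tissue beneath, and types XIII, XVII and XXIII span the cell membrane. In the early mouse embryo, type IV collagen and laminins make up the first basement membranes, and the endoderm lineages are strong producers of type IV collagen.

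The Smarcb1 level, in reads per 1000000 (RPM), lay at 84.7 to 97.8 in the 48 h ctrl libraries and at 82.2 to 88.3 in the 240 h ctrl libraries. It lay at 12.5 to 20.4 after 48 h kd, 12.7 to 15.9 after 72 h kd and 15.4 to 17.9 after 240 h kd, so the targeted gene followed the labels. Library totals were 11074998 to 14515300 reads. Reads had been counted over whole gene spans, introns included, and irrespective of strand, which was tested on the files. Levels are given as RPM, reads per 1000000 of the library total, and as FPKM, which is RPM per kilobase of gene span, where genes are set side by side. The library 48 h kd replicate 2 stood apart from its replicates, with 2.35% of its reads in mitochondrial genes against 0.469% to 1.81% in the other 14 libraries. The lowest share, 0.469%, was that of 240 h ctrl replicate 3, against 1.35% and 1.17% in its replicates. Its read counts also differed more from replicates 1 and 2 (chi-square per degree of freedom 8.05 and 4.60) than theirs did from each other (2.10). Of the 24 collagen genes with enough reads, 14 overlap another listed gene. The 8 pluripotency genes checked, among them Pou5f1 and Nanog, summed to between 4483 and 6248 RPM in each library. Fibroblast genes summed to 5.54 to 9.44, and Dpt was at 0 reads in all 5 groups.

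One member took most of the collagen reads. Col18a1, which encodes a multiplexin of basement membranes and the precursor of endostatin, made up 72.8% to 86.4% of the collagen reads of a library. Per kilobase of gene span its mean was 5.56 FPKM. The next members on this scale were Col9a2 at 0.723 FPKM, Col2a1 at 0.416 FPKM, Col1a1 at 0.385 FPKM, Col9a3 at 0.351 FPKM and Col5a3 at 0.335 FPKM. These levels are per whole span, so a gene with long introns is set lower than its transcript would be. Col18a1 lies at chr10:77052178-77166548 on the minus strand and shares 8825 bases with Slc19a1, a folate transporter gene on the plus strand. Slc19a1 had 3261 to 5963 reads per library and Col18a1 5514 to 11172, and their reads in the shared stretch cannot be told apart. Without Col18a1, the summed collagen RPM were 126.8 ± 4.68 (SD, n = 3) in 48 h ctrl and 118 ± 13.8 after 48 h kd, which overlap. They were 180 ± 4.54 after 72 h kd, against 139 ± 3.19 in 240 h ctrl and 209 ± 14.5 after 240 h kd. Every 72 h kd and 240 h kd library lay above every ctrl library in this sum.

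The sequence before the start is shown for a few members that rose at 72 h, to show what their promoters do and do not share. Of the 10 members called higher at 72 h, 6 had a RefSeq start that coincided with the start in GENCODE, and the 3 of these with the most reads are shown. The sequences are the 250 bases before the start on build GRCm38.p6, from RefSeq, 5′ to 3′ on the strand of the gene. Capitals mark the letters GGGCGG (called a GC box), the letters CCAAT (called a CCAAT box) and the letters TATAAA (called a TATA box) on either strand. On the opposite strand these read CCGCCC for the GC box, ATTGG for the CCAAT box and TTTATA for the TATA box. Col5a3, a fibrillar type V chain, is at chr9:20815068-20815317 (minus strand), Col7a1, the type VII chain of anchoring fibrils, at chr9:108953336-108953585 (plus strand), and Col13a1, a transmembrane collagen, at chr10:61979109-61979358 (minus strand).
Col5a3: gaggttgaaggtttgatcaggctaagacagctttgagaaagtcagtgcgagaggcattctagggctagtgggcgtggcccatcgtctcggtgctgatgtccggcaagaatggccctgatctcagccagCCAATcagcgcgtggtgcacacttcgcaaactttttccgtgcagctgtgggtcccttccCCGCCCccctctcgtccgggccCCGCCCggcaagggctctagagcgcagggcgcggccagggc
Col7a1: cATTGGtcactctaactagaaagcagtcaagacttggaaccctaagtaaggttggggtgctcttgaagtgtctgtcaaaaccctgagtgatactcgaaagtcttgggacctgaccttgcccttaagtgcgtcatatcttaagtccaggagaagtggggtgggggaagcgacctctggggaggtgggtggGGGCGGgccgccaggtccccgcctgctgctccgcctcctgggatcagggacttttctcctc
Col13a1: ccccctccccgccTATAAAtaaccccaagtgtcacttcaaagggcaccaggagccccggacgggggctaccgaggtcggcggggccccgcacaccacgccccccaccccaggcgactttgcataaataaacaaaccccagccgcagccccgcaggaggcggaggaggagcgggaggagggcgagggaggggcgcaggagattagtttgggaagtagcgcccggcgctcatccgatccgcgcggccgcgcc
The Col5a3 window held 2 GC boxes and 1 CCAAT box, the Col7a1 window 1 of each, and the Col13a1 window 1 TATA box and neither of the others. The TATA box of Col13a1 and the CCAAT box of Col7a1 lay near the left end of the printed windows, far from the start. Whether any of these matches is used was not tested. Of 32851 mouse windows of this length, 32.7% held a GC box, 33.8% a CCAAT box and 12.4% a TATA box. Of the 38 windows listed for 35 of the 44 collagen genes, 22 held a GC box, 13 a CCAAT box and 5 a TATA box. None of the motifs was in all 3 of the windows shown.

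The next sequence is the place where the type IV genes Col4a1 and Col4a2 meet. Col4a1 (chr8:11198423-11312826, minus strand) and Col4a2 (chr8:11312805-11449287, plus strand) are transcribed away from each other, and their annotated 5′ ends share the 22 bases of chr8:11312805-11312826, shown on the plus strand with a GC box in capitals.
Col4a1 and Col4a2 start: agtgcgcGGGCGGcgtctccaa

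At 48 h, 23 members were tested, and 3 of them were higher and 4 lower in kd than in ctrl. A gene was called at a limma adjusted p-value under 0.05 and a log2 fold change beyond 0.58 in either direction, and each adjusted p-value below is from limma with Benjamini-Hochberg adjustment over all genes tested. Over all genes 9.23% were called in this comparison, 4.32% higher and 4.90% lower. Of the 4 lower members, 3 had a mean of at least 10 reads in kd, and Col6a4 passed the minimum on reads only through the ctrl libraries, where it was high. The count of 7 rested on single libraries: leaving out 48 h ctrl replicate 3 gave 3, leaving out 48 h kd replicate 3 gave 4, and 3 of the 7 calls (Col4a1, Col5a3 and Col9a2) held in each fit with 1 library left out. Without 48 h kd replicate 2, 2 members were higher and 5 lower. The changes at 48 h and 72 h share the 48 h ctrl libraries and are not independent of each other. At 72 h, 10 of 24 members were higher and 2 lower, where 22.3% of all genes were called, 12.3% higher and 10.0% lower. Of the 10, 9 had a mean of at least 10 reads in 48 h ctrl, and Col23a1 passed only through the kd libraries. After 240 h, 15 of 29 members were higher and 2 lower, where 17.7% of all genes were called, 9.76% higher and 7.95% lower. Of the 15, 11 had a mean of at least 10 reads in 240 h ctrl. The other 4 (Col1a2, Col12a1, Col14a1 and Col6a6) passed the minimum on reads only through the kd libraries, where they were high. Without 240 h kd replicate 3, 10 members were called at 240 h, all higher, and with a pseudocount of 1 RPM 11 were. With a minimum of 50 reads, which left fewer genes, the members called were 4 after 48 h, 6 after 72 h and then 7 after 240 h. Over the 24 members with 10 or more reads on average in the 15 libraries, the median log2 difference of kd from ctrl was 0.16 at 48 h, 0.43 at 72 h and 0.57 at 240 h, beside 0.0087, 0.010 and 0.0043 over the 16370 genes with as many reads. At 240 h it was 0.61 over the 29 members tested and 0.51 over the 24 with 10 or more reads in both groups, so the first of these is raised by members that passed only through kd. Of the 24 members with at least 10 reads, 20 were called in at least 1 knockdown comparison, 14 of them only higher, 5 only lower and 1, Col6a2, in both directions. Of the 16370 genes with as many reads, 31.8% were called in at least 1 of the 3, 17.0% only higher, 13.8% only lower and 1.04% in both directions. Col5a3 and Col1a1 were higher at all 3 times.

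**Figure D1:**
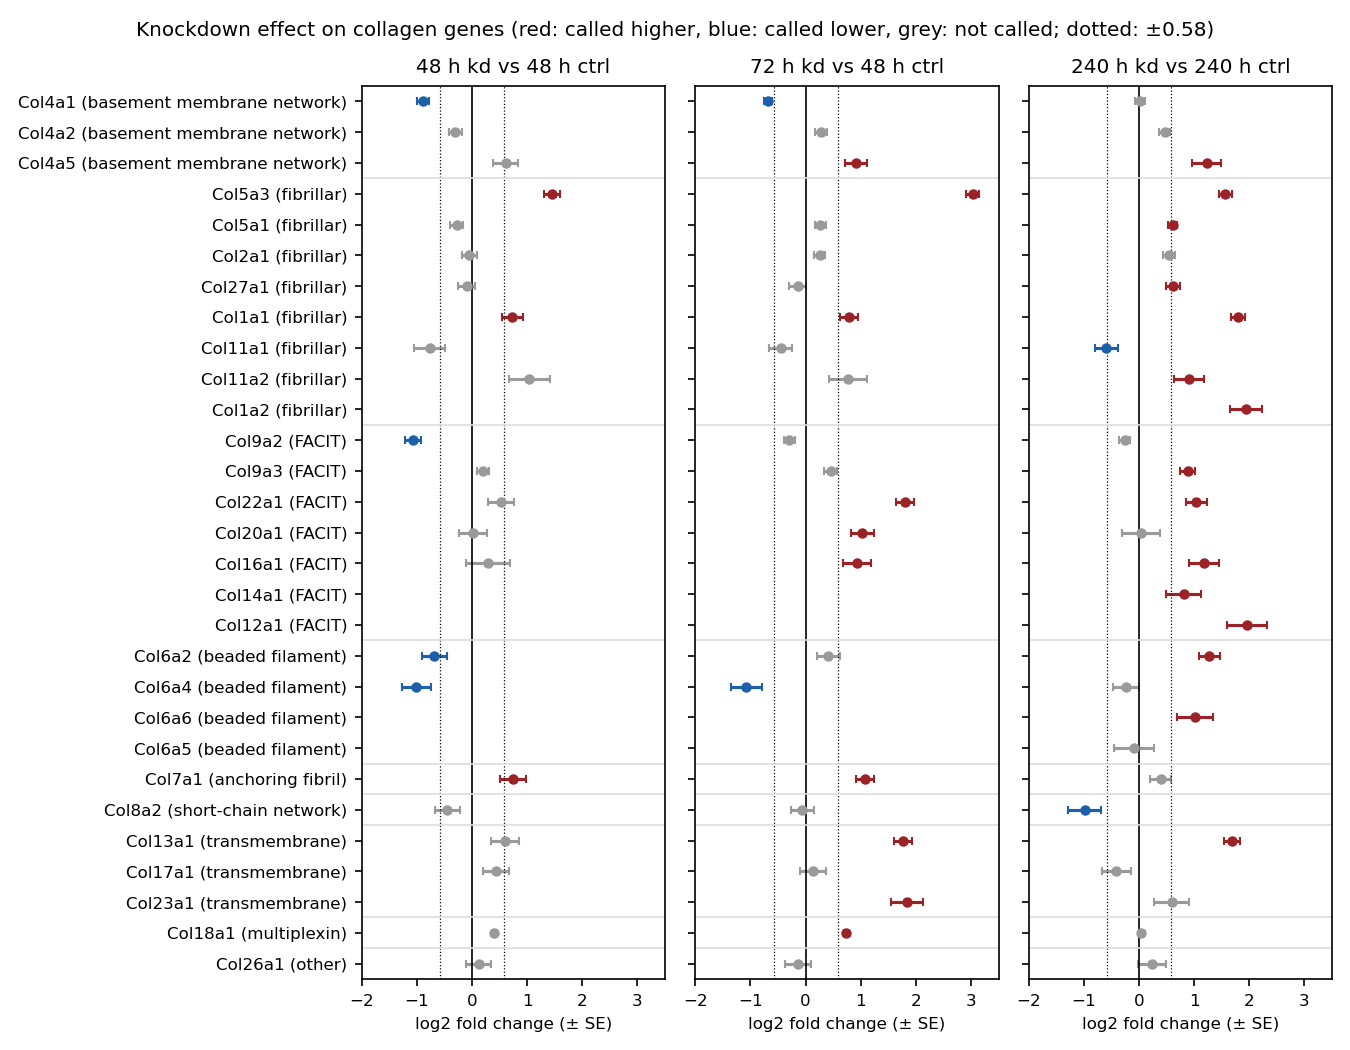
Log2 fold change (± SE) of each tested collagen gene in the 3 knockdown comparisons, grouped by collagen class, with red for called higher, blue for called lower, grey for not called and dotted lines at 0.58 on either side of 0. Col5a3 reaches 3.03 at 72 h, and of the 3, 10 and 15 red points at 48 h, 72 h and 240 h, 3, 9 and 11 had a ctrl mean of 10 reads or more.

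Among the fibrillar genes, 2 of 7 tested were called higher at 48 h and at 72 h, none of them lower, and at 240 h 6 of 8 were higher and 1 lower. Of these 6, Col1a2 passed the minimum on reads only through kd. Over all genes, 4.32%, 12.3% and 9.76% were called higher at the 3 times, and 7.95% were lower at 240 h. Col5a3 encodes the α3 chain of type V collagen, which takes part in the start of fibril assembly. It had 5.18, 3.88 and 3.62 RPM in 48 h ctrl, 11.5, 11.9 and 11.4 after 48 h kd, and 33.9, 34 and 36.9 after 72 h kd. In 240 h ctrl it had 6.35, 5.36 and 6.8, and in 240 h kd 18.5, 18.7 and 18.0. Each kd group lay above both ctrl groups with no overlap, and the 72 h kd libraries were the highest. Its log2 fold change was 1.45 (SE 0.15, adjusted p = 2.31e-05) at 48 h, 3.03 (SE 0.12, adjusted p = 1.59e-16) at 72 h and 1.57 (SE 0.11, adjusted p = 4e-09) at 240 h. The 72 h mean was 8.27 times the 48 h ctrl mean.

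Col1a1 and Col1a2 encode the chains of type I collagen, the main collagen of bone and skin. Col1a1 had 2.92, 2.8 and 2.65 RPM in 48 h ctrl, 5.04, 3.67 and 5.51 after 48 h kd and 4.45, 5.18 and 5.05 after 72 h kd. It had 4.18, 4.71 and 4.3 in 240 h ctrl and 15.2, 13.8 and 17.6 after 240 h kd. The kd libraries did not overlap their controls at any time, but 48 h kd and 72 h kd overlapped 240 h ctrl. On the log2 scale, the change was 0.725 (SE 0.19, adjusted p = 0.014) at 48 h, 0.79 (SE 0.17, adjusted p = 0.000305) at 72 h and 1.79 (SE 0.12, adjusted p = 3.09e-09) at 240 h. Col1a1 was also higher in 240 h ctrl than in 48 h ctrl by 0.64 (SE 0.17, adjusted p = 0.0206). Against 240 h ctrl in place of 48 h ctrl, its 72 h change was 0.15 (SE 0.15, adjusted p = 0.396) and no longer called. The 48 h call was lost without 48 h kd replicate 3 (0.61, adjusted p = 0.0717) or without 48 h ctrl replicate 3 (0.69, adjusted p = 0.0533).

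Col1a2 had few reads before 240 h, with 2 to 5 in the 48 h ctrl libraries, 2 to 4 after 48 h kd and 3 to 11 after 72 h kd. At 240 h the counts were 6, 5 and 5 reads in ctrl and 22, 28 and 30 reads in kd, which did not overlap. By limma, the log2 change was 1.95 (SE 0.29, adjusted p = 3.58e-05). Both type I chains therefore had their highest libraries in 240 h kd.

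Col5a1, the main α1 chain of type V collagen, had 12.7, 13.7 and 13.4 RPM in 240 h ctrl and 20.1, 19.4 and 21.2 after 240 h kd. It had 10.6, 13.4 and 11.3 in 48 h ctrl, 9.81, 9.81 and 9.3 after 48 h kd and 13.7, 13.8 and 15.1 after 72 h kd. The 48 h kd libraries were the lowest of all and the 240 h kd libraries the highest. The log2 fold change was −0.28 (SE 0.12, adjusted p = 0.0975) at 48 h, 0.27 (SE 0.10, adjusted p = 0.028) at 72 h and 0.61 (SE 0.085, adjusted p = 1.76e-05) at 240 h, and only the last passed the limit on fold change. It dropped under that limit without 240 h ctrl replicate 1 (0.58, adjusted p = 4.36e-05) or without 240 h kd replicate 3 (0.57, adjusted p = 0.000363).

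Col27a1, which encodes a fibrillar collagen of cartilage, had 6.93, 5.86 and 5.56 RPM in 48 h ctrl, 4.86, 6.05 and 6.23 after 48 h kd and 5.86, 6.23 and 4.59 after 72 h kd. It had 7.24, 5.76 and 6.25 in 240 h ctrl and 9.94, 9.51 and 10.1 after 240 h kd. The first 4 of these groups overlapped, and 240 h kd lay above them all. Its log2 fold change at 240 h was 0.62 (SE 0.12, adjusted p = 0.000569), and without 240 h ctrl replicate 2 it was 0.54 (adjusted p = 0.0048), under the limit on fold change.

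Col11a1 and Col11a2 encode chains of type XI collagen of cartilage fibrils, and they were called in opposite directions at 240 h. Col11a1 had 40, 39 and 29 reads in 240 h ctrl and 25, 29 and 23 after 240 h kd, which gave 3.22, 3.17 and 2.27 against 1.9, 2 and 1.69 RPM. At 48 h it had 3.35, 2.35 and 3.89 RPM in ctrl and 1.22, 2.47 and 1.9 in kd, and at 72 h 2.42, 2.27 and 2.11. The groups overlapped at 48 h and 72 h and did not at 240 h. On the log2 scale, the change at 240 h was −0.59 (SE 0.21, adjusted p = 0.0316), which was lost in 4 of 6 fits with 1 library left out, namely 240 h ctrl replicate 1 or 2 and 240 h kd replicate 1 or 3 (adjusted p 0.0578 to 0.116). At 48 h it was −0.77 (SE 0.28, adjusted p = 0.0567), and it was called without 48 h kd replicate 2 (−0.99, adjusted p = 0.00579) or 48 h ctrl replicate 2 (−0.97, adjusted p = 0.0473). Without the latter it was also called at 72 h (−0.65, adjusted p = 0.0151).

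Col11a2 had 15, 4 and 13 reads in 48 h ctrl, 18, 23 and 18 after 48 h kd and 14, 19 and 22 after 72 h kd. It had 16, 11 and 9 reads in 240 h ctrl and 24, 25 and 27 after 240 h kd, with no overlap. By limma, the log2 change was 0.91 (SE 0.27, adjusted p = 0.0119) at 240 h, and without 240 h kd replicate 3 the adjusted p was 0.0519. It was called higher at 48 h without 48 h ctrl replicate 1 (1.25, adjusted p = 0.0497), and at 72 h without 48 h ctrl replicate 1 or 3 or 72 h kd replicate 1 (0.94 to 1.03). Col2a1, the type II collagen of cartilage, was not called. It had 10.2, 11.8 and 10.2 RPM in 240 h ctrl and 14.3, 16 and 16.9 after 240 h kd, a log2 fold change of 0.54 (SE 0.10, adjusted p = 0.000346), under the limit of 0.58. Without 240 h ctrl replicate 2 or 240 h kd replicate 1 it was 0.61 and called (adjusted p up to 0.000569).

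**Figure D2:**
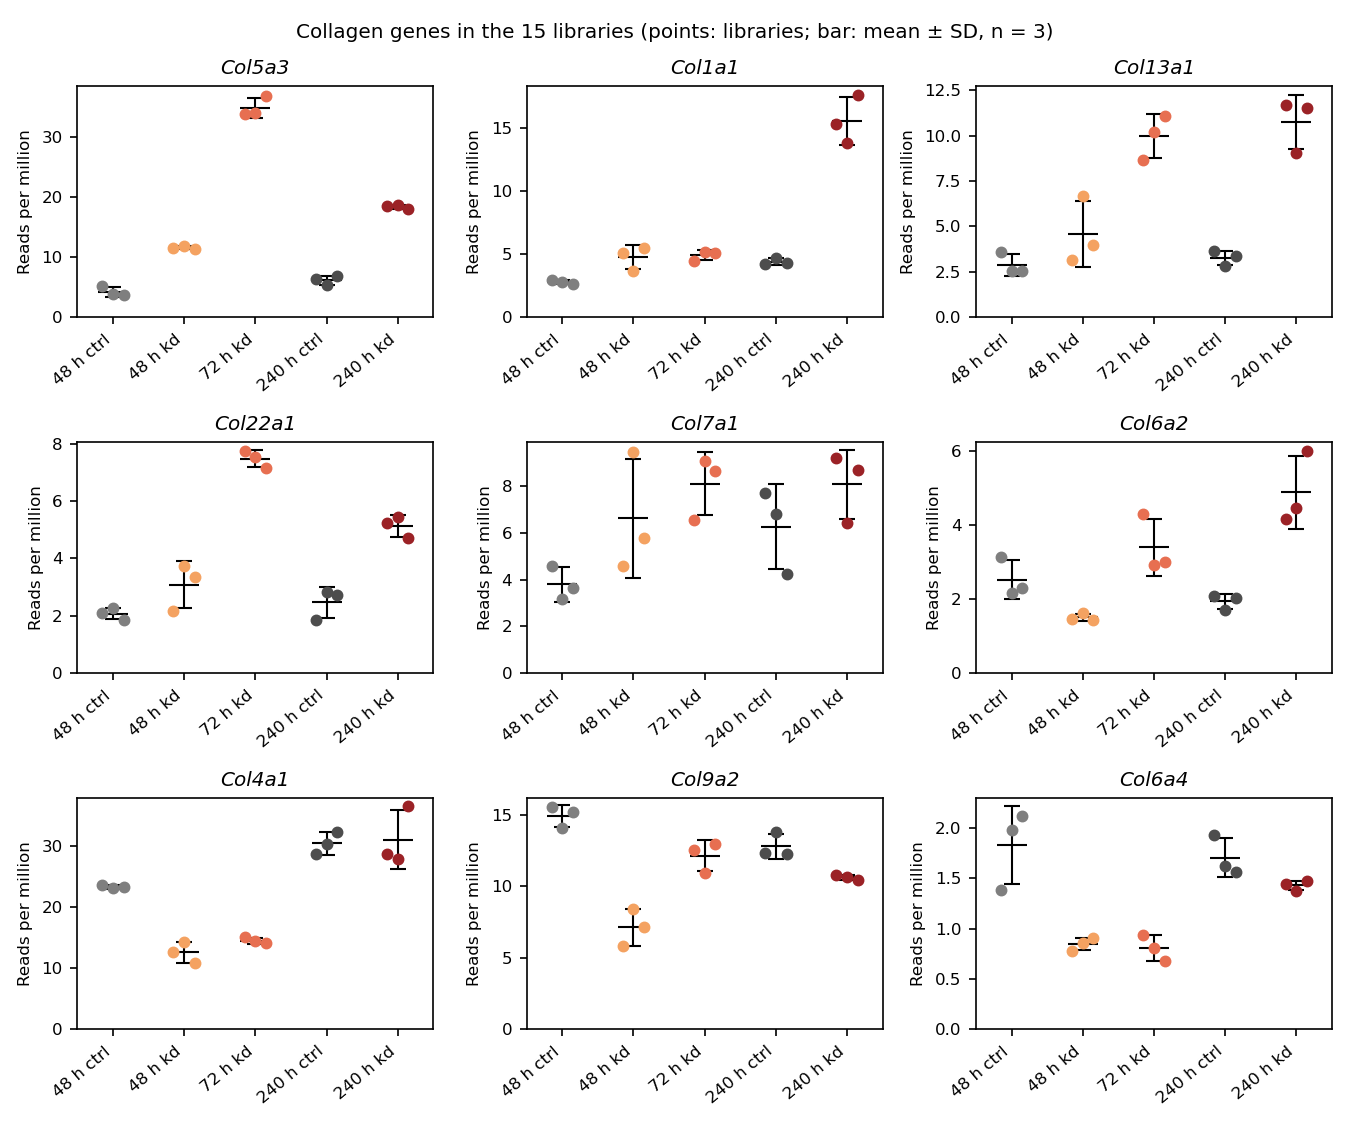
RPM (linear axis from 0) of 9 collagen genes in the 15 libraries, with 1 point per library and bars for the mean ± SD (n = 3). Col5a3 is highest in 72 h kd (33.9 to 36.9), Col1a1 after 240 h kd (13.8 to 17.6), and Col4a1 is lowest in 48 h kd and 72 h kd (10.7 to 15).

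Of the 3 basement membrane type IV genes tested, Col4a1 was called lower at 48 h and 72 h and Col4a5 higher at 72 h and 240 h, and Col4a2 was called in no knockdown comparison. Col4a1 and Col4a2 encode the chains of the common type IV collagen, which assembles from α1 and α2 chains. Col4a1 had 23.5, 23 and 23.2 RPM in 48 h ctrl, 12.7, 14.2 and 10.7 after 48 h kd and 15, 14.4 and 14 after 72 h kd. It had 28.6, 30.2 and 32.3 in 240 h ctrl and 28.6, 27.8 and 36.5 after 240 h kd. The 48 h kd and 72 h kd libraries were the lowest 6 of the 15, and the groups overlapped at 240 h. The log2 fold change was −0.89 (SE 0.11, adjusted p = 6.66e-05) at 48 h, −0.68 (SE 0.079, adjusted p = 7.79e-08) at 72 h and 0.02 (SE 0.091, adjusted p = 0.882) at 240 h. Against 240 h ctrl the 72 h change was −1.06 (SE 0.078, adjusted p = 5.95e-09).

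Col4a2 had 9.99, 10.6 and 10.7 RPM in 48 h ctrl, 7.73, 9.55 and 8.13 after 48 h kd and 12.3, 11.4 and 14.3 after 72 h kd. It had 11.7, 13.8 and 14.1 in 240 h ctrl and 17.8, 16.9 and 20.1 after 240 h kd. The libraries of 48 h kd were the lowest and those of 240 h kd the highest, with no overlap with the other groups. Its log2 fold change was −0.30 (SE 0.12, adjusted p = 0.0832), 0.27 (SE 0.11, adjusted p = 0.0294) and 0.47 (SE 0.10, adjusted p = 0.0011) at 48 h, 72 h and 240 h, under the limit on fold change at each time.

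The ratio of Col4a1 to Col4a2 reads within a library was 2.16 to 2.36 for the libraries of 48 h ctrl and 2.19 to 2.46 for those of 240 h ctrl. It was 1.32 to 1.64 after 48 h kd, 0.979 to 1.26 after 72 h kd and 1.61 to 1.81 after 240 h kd. Every kd library was below every ctrl library, 240 h included, where the Col4a1 level itself overlapped. The ratio was looked at after the values of both genes were known and is given as a description. Antisense genes lie within both: Gm15418 covers 6081 bases of Col4a1 and had 39 to 139 reads, against 119 to 497 for Col4a1, and Gm15419 covers 18707 bases of Col4a2 and had 5 to 37 reads. Less the reads of Gm15418, the Col4a1 change was −0.79 (SE 0.13, adjusted p = 0.000869) at 48 h and −0.75 (SE 0.099, adjusted p = 5.82e-07) at 72 h.

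**Figure D3:**
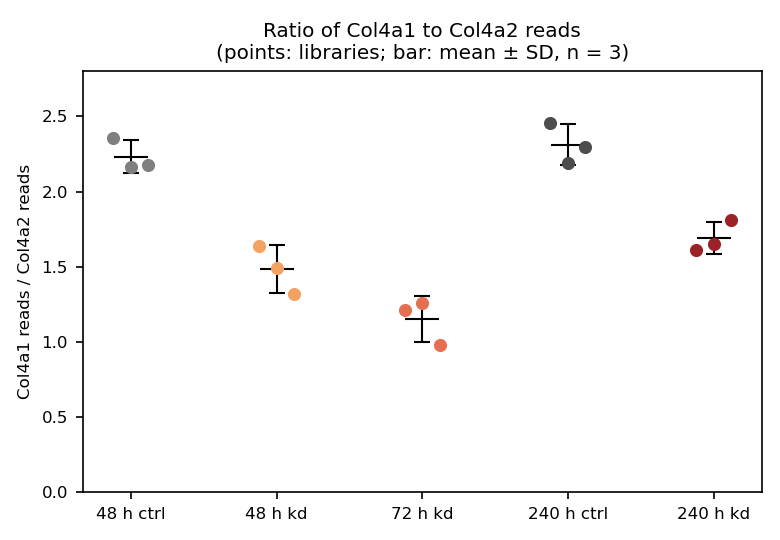
Col4a1 reads divided by Col4a2 reads in each library (points), with the mean ± SD of the 3 libraries of a group. The ctrl libraries lie between 2.16 and 2.46 and the kd libraries between 0.979 and 1.81.

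Col4a5, an X-linked type IV chain of the glomerular basement membrane, had 1.82, 1.98 and 1.59 RPM in 48 h ctrl, 2.17, 3.33 and 2.98 after 48 h kd and 3.28, 3.48 and 3.62 after 72 h kd. It had 2.01, 2.19 and 1.02 in 240 h ctrl and 5.16, 3.03 and 4.11 after 240 h kd. Each kd group lay above its control, and the lowest library was 240 h ctrl replicate 3 with 13 reads. On the log2 scale, the change was 0.61 (SE 0.23, adjusted p = 0.0659) at 48 h, 0.91 (SE 0.20, adjusted p = 0.00041) at 72 h and 1.23 (SE 0.27, adjusted p = 0.00121) at 240 h. It was called at 48 h without 48 h kd replicate 1 (0.78, adjusted p = 0.0298). Its neighbour Col4a6 and the genes Col4a3 and Col4a4 were never tested for want of reads.

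Col18a1 had 521, 497 and 498 RPM in 48 h ctrl, 674, 660 and 674 after 48 h kd and 838, 827 and 841 after 72 h kd. It had 576, 559 and 596 in 240 h ctrl and 592, 589 and 603 after 240 h kd. The 72 h kd libraries were the highest, and the 240 h groups overlapped. By limma, the log2 change was 0.41 (SE 0.047, adjusted p = 5.81e-05) at 48 h, under the limit on fold change, 0.73 (SE 0.034, adjusted p = 6.76e-15) at 72 h and 0.04 (SE 0.04, adjusted p = 0.4) at 240 h. Less all reads of Slc19a1, also those outside the shared stretch, it was 0.54, 0.86 and 0.06. Against 240 h ctrl the 72 h change was 0.53 (SE 0.04, adjusted p = 8.09e-09), under the limit.

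Among the FACIT genes, 1 of 5 tested was called lower at 48 h, 3 of 5 higher at 72 h, and 5 of 7 higher at 240 h. The share of all genes was 4.90% lower at 48 h, 12.3% higher at 72 h and 9.76% higher at 240 h. Of the 5 at 240 h, Col12a1 and Col14a1 passed the minimum on reads only through kd. Of the 3 at 72 h, Col20a1 has uncertain reads, since it overlaps another listed gene, and it could not be tested with all reads of that gene taken away. Col9a2 and Col9a3 encode chains of type IX collagen, which coats type II fibrils. Col9a2 had 15.5, 14.1 and 15.2 RPM in 48 h ctrl and 5.82, 8.44 and 7.13 after 48 h kd. It had 12.6, 10.9 and 13 after 72 h kd, with 12.3, 13.8 and 12.3 in 240 h ctrl, then 10.8, 10.7 and 10.4 after 240 h kd. The 48 h kd libraries were the lowest and stood apart from all others. The log2 fold change was −1.07 (SE 0.14, adjusted p = 0.000118) at 48 h, and −0.30 (SE 0.098, adjusted p = 0.0111) at 72 h and −0.26 (SE 0.099, adjusted p = 0.0395) at 240 h, both under the limit on fold change. Between 48 h kd and 72 h kd it rose by 0.77 (SE 0.14, adjusted p = 0.000941).

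Col9a3 had 8.6, 7.67 and 8.04 RPM in 48 h ctrl, 9.12, 8.95 and 9.84 after 48 h kd and 11.9, 10.5 and 11 after 72 h kd. It had 4.74, 5.28 and 4.92 in 240 h ctrl and 7.81, 9.85 and 10.4 after 240 h kd. The 240 h ctrl libraries were the lowest, below those of 48 h ctrl, whereas 240 h kd overlapped 48 h ctrl. The log2 difference of 240 h ctrl from 48 h ctrl was −0.69 (SE 0.13, adjusted p = 0.00304). The knockdown change was 0.20 (SE 0.12, adjusted p = 0.242) at 48 h, 0.45 (SE 0.11, adjusted p = 0.00115) at 72 h and 0.88 (SE 0.14, adjusted p = 5.23e-05) at 240 h. At 72 h it was 1.14 (SE 0.12, adjusted p = 4.68e-07) against 240 h ctrl. Col9a3 shares 234 bases with Tcfl5, which had 574 to 1073 reads on the opposite strand, and the part of its reads that stems from Tcfl5 was not tested.

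Col22a1, a collagen of tissue junctions, had 2.11, 2.25 and 1.85 RPM in 48 h ctrl, 2.17, 3.75 and 3.34 after 48 h kd and 7.74, 7.53 and 7.16 after 72 h kd. It had 1.85, 2.84 and 2.73 in 240 h ctrl and 5.23, 5.44 and 4.7 after 240 h kd. The 72 h kd libraries lay above all others, and 48 h kd overlapped its control. Its log2 fold change was 0.52 (SE 0.23, adjusted p = 0.122), 1.80 (SE 0.17, adjusted p = 1.5e-09) and 1.04 (SE 0.19, adjusted p = 0.000245) at the 3 times, and at 48 h it was called without 48 h kd replicate 1 (0.75, adjusted p = 0.0282).

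Col16a1, another FACIT gene, had 19, 11 and 10 reads in 48 h ctrl, 10, 34 and 10 after 48 h kd and 29, 29 and 24 after 72 h kd. It had 12, 9 and 14 reads in 240 h ctrl and 37, 26 and 29 after 240 h kd. In 48 h kd, replicate 2 was alone above the controls. On the log2 scale, the change was 0.93 (SE 0.26, adjusted p = 0.00325) at 72 h and 1.18 (SE 0.27, adjusted p = 0.00159) at 240 h. Col20a1 had 26, 17 and 20 reads in 48 h ctrl, 16, 28 and 18 after 48 h kd and 42, 52 and 46 after 72 h kd, a log2 fold change of 1.03 (SE 0.20, adjusted p = 0.000127) at 72 h. It had 15, 6 and 15 reads in 240 h ctrl and 14, 13 and 11 after 240 h kd, which overlapped. The listed gene 9230112E08Rik shares 741 bases with Col20a1 and had 26 to 51 reads, so the reads of Col20a1 are uncertain. With all reads of 9230112E08Rik taken away, Col20a1 was at 0 in 14 of 15 libraries and at 4 in the other. It could not be tested there, and its call at 72 h was lost. Reads of 9230112E08Rik outside the shared bases were taken away too, so this does not tell whether the call holds. Against 240 h ctrl, with the reads of Col20a1 as counted, its 72 h change was 1.91 (SE 0.29, adjusted p = 2.33e-05).

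Col12a1 and Col14a1, FACIT collagens of tendon and skin, had their knockdown change tested only at 240 h. Col12a1 had 2, 4 and 5 reads in 240 h ctrl and 20, 16 and 21 after 240 h kd, and 1 to 5 in every library of the earlier groups. Its log2 fold change was 1.96 (SE 0.36, adjusted p = 0.000283), and the 240 h kd libraries stood apart from all 12 others. Without 240 h kd replicate 1 or 3 it fell under the minimum on reads and was not tested. Col14a1 had 9, 12 and 6 reads in 240 h ctrl and 21, 18 and 15 after 240 h kd, a change of 0.81 (SE 0.32, adjusted p = 0.0463). It also entered the interaction of the 240 h and 48 h effects, where it was not called (1.24, SE 0.70, adjusted p = 0.236). Less the reads of overlapping genes the change was 0.78 (adjusted p = 0.0572) and not called, and 16 members were then called at 240 h, 14 higher and 2 lower. The call was kept in 1 of 6 fits with 1 library left out, the one without 240 h ctrl replicate 2 (adjusted p 0.0602 to 0.163 in the others).

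Of the beaded filament genes, 2 of 2 tested at 48 h were called lower, of which Col6a4 passed the minimum on reads only through ctrl. At 72 h 1 of 2 was lower, and at 240 h 2 of 4 were higher, of which Col6a6 passed only through kd. Over all genes, 4.90% were lower at 48 h, 10.0% lower at 72 h and 9.76% higher at 240 h. Col6a2, the α2 chain of type VI collagen, had 43, 24 and 26 reads in 48 h ctrl, 17, 19 and 16 after 48 h kd and 55, 36 and 40 after 72 h kd. It had 26, 21 and 26 in 240 h ctrl and 55, 65 and 82 after 240 h kd. The 48 h kd libraries were the lowest 3 and the 240 h kd libraries lay above both ctrl groups. By limma, the log2 change was −0.69 (SE 0.23, adjusted p = 0.0418) at 48 h, 0.41 (SE 0.21, adjusted p = 0.0927) at 72 h and 1.28 (SE 0.19, adjusted p = 4.19e-05) at 240 h. The 48 h call was kept only without 48 h kd replicate 2 (adjusted p = 0.0365) and lost without any of the other 5 libraries, with a change of −0.53 to −0.79 and an adjusted p of up to 0.167. Against 240 h ctrl the 72 h change was 0.76 (SE 0.21, adjusted p = 0.00454) and called higher.

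Col6a4 had 19, 22 and 24 reads in 48 h ctrl, 9, 10 and 10 after 48 h kd and 12, 10 and 9 after 72 h kd. It had 24, 20 and 20 in 240 h ctrl and 19, 20 and 20 after 240 h kd. All libraries of 48 h kd and 72 h kd lay below all others. The log2 fold change was −1.01 (SE 0.27, adjusted p = 0.0149) at 48 h, −1.08 (SE 0.28, adjusted p = 0.00195) at 72 h and −0.23 (SE 0.23, adjusted p = 0.445) at 240 h. At 48 h the call was lost without 48 h ctrl replicate 2 (adjusted p = 0.0719) or replicate 3 (adjusted p = 0.0764). Col6a6 had 15, 4 and 9 reads in 48 h ctrl, 1, 2 and 3 after 48 h kd and 1, 2 and 9 after 72 h kd, too few to be tested there. At 240 h it had 8, 8 and 5 reads in ctrl and 12, 21 and 18 in kd, a change of 1.01 (SE 0.33, adjusted p = 0.0188). That call was lost without 240 h ctrl replicate 3 or without 240 h kd replicate 2 or 3 (adjusted p 0.0594 to 0.0854).

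Col7a1 had 4.59, 3.16 and 3.62 RPM in 48 h ctrl, 4.6, 9.46 and 5.78 after 48 h kd and 6.56, 9.07 and 8.66 after 72 h kd. It had 7.72, 6.82 and 4.22 in 240 h ctrl and 9.18, 6.41 and 8.67 after 240 h kd. The highest library was 48 h kd replicate 2, and the 240 h groups overlapped. Its log2 fold change was 0.74 (SE 0.24, adjusted p = 0.0383) at 48 h, 1.08 (SE 0.16, adjusted p = 4.45e-06) at 72 h and 0.39 (SE 0.19, adjusted p = 0.106) at 240 h. At 48 h it was 0.45 (adjusted p = 0.0929) without 48 h kd replicate 2, and the call was also lost without 48 h kd replicate 3, 48 h ctrl replicate 2 or 48 h ctrl replicate 3 (adjusted p 0.0677 to 0.149). Col7a1 was higher in 240 h ctrl than in 48 h ctrl by 0.68 (SE 0.21, adjusted p = 0.0405), and against 240 h ctrl its 72 h change was 0.40 (SE 0.19, adjusted p = 0.0779).

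Among the transmembrane collagens, Col13a1 had 3.57, 2.53 and 2.56 RPM in 48 h ctrl, 3.13, 6.65 and 3.97 after 48 h kd and 8.67, 10.2 and 11.1 after 72 h kd. It had 3.62, 2.84 and 3.36 in 240 h ctrl and 11.7, 9.02 and 11.5 after 240 h kd. The 72 h kd and 240 h kd libraries lay above the other 9, and 48 h kd overlapped its control. On the log2 scale, the change was 0.60 (SE 0.26, adjusted p = 0.108) at 48 h, 1.77 (SE 0.16, adjusted p = 1.39e-09) at 72 h and 1.68 (SE 0.15, adjusted p = 7.61e-08) at 240 h. At 48 h it was called without 48 h kd replicate 1 (0.83, adjusted p = 0.0282). Col23a1 had 7, 6 and 7 reads in 48 h ctrl, 12, 12 and 12 after 48 h kd and 35, 21 and 32 after 72 h kd, a change of 1.84 (SE 0.29, adjusted p = 5.9e-06) at 72 h. It passed the minimum on reads at 72 h only through the kd libraries. At 240 h it had 9, 10 and 9 reads in ctrl and 20, 11 and 19 in kd (0.59, SE 0.32, adjusted p = 0.141), and without 240 h kd replicate 2 it was called (0.88, adjusted p = 0.044). Col17a1, the collagen of hemidesmosomes, was not called, and its groups overlapped in each knockdown comparison at 1.62 to 3.33 RPM. Its change at 240 h was −0.41 (adjusted p = 0.208), and without 240 h ctrl replicate 3 it was −0.71 (adjusted p = 0.0166) and called lower.

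Col8a2, a short-chain collagen of the corneal endothelium, had 2.57, 3.33 and 3.20 RPM in 240 h ctrl and 2.05, 2.07 and 0.734 after 240 h kd. It had 2.48, 2.07 and 2.3 in 48 h ctrl, 2, 1.45 and 1.53 after 48 h kd and 2.19, 2.10 and 2.26 after 72 h kd. The lowest library was 240 h kd replicate 3 with 10 reads. By limma, the log2 change at 240 h was −0.99 (SE 0.31, adjusted p = 0.0143). It was −0.53 (adjusted p = 0.0806) without 240 h kd replicate 3, and the call was also lost without 240 h ctrl replicate 2 (adjusted p = 0.056). Col26a1 was not called, and its groups overlapped in each knockdown comparison, between 1.24 and 3.06 RPM. The 15 members that were never tested had means of 0.8 to 7.6 reads and at most 24 reads in a library. These members, Col3a1, Col6a1 and Col6a3 among them, were left out by the minimum on reads. Of these 15, the mean RPM in kd was above that in ctrl for 8 at 48 h, 10 at 72 h and 12 at 240 h and below it for the other 7, 5 and 3, with no test. The same count over all genes with as few reads was not made, so nothing particular to collagen genes is read from it. Of all listed genes, 26393 to 26535 had reads in a 240 h kd library and 25394 to 25642 in a 240 h ctrl library.

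The change between 48 h kd and 72 h kd was tested directly, without the controls. Of 24 members, 7 were higher at 72 h and 0 lower by limma, where 6.91% of all genes were called higher and 5.97% lower. The count of lower members was 0 also at an unadjusted p under 0.05 and by limma voom on the recovered reads. At that unadjusted p it was 1 by limma without the trend in the prior variance. The 7 were Col5a3 (1.58, SE 0.08, adjusted p = 7.58e-08), Col22a1, Col13a1, Col6a2, Col23a1, Col20a1 and Col9a2, with log2 changes of 0.77 to 1.58. With all reads of overlapping genes taken away, Col20a1 could not be tested and 6 were higher. Without 48 h kd replicate 2, 10 were higher and 0 lower. In the untreated cells, 2 of 23 members were higher in 240 h ctrl than in 48 h ctrl and 1 lower, where 1.36% of all genes were called, 0.857% higher and 0.506% lower. These were Col1a1, Col7a1 and Col9a3, described above. The count of 3 was 1 without 48 h ctrl replicate 2 or 3 or 240 h ctrl replicate 2, and it was 5 without 240 h ctrl replicate 3.

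The knockdown effects at 48 h and 240 h share no library, and their difference was tested as an interaction over 12 libraries. The effect was higher at 240 h than at 48 h for 10 of 25 members and lower for 0, where 5.47% of all genes were called higher and 5.06% lower. At an unadjusted p under 0.05, 2 members were lower (Col18a1 and Col17a1), and limma voom on the recovered reads called 0 lower. The largest difference was that of Col6a2, at 1.97 on the log2 scale (SE 0.29, adjusted p = 7.44e-05), from −0.69 at 48 h to 1.28 at 240 h. Col4a1 went from −0.89 to 0.02, a difference of 0.91 (SE 0.15, adjusted p = 0.000242), and Col4a2 from −0.30 to 0.47, a difference of 0.77 (SE 0.15, adjusted p = 0.00147). The difference was 1.07 (SE 0.22, adjusted p = 0.00183) for Col1a1, 1.09 (SE 0.32, adjusted p = 0.0207) for Col13a1 and 0.81 (SE 0.17, adjusted p = 0.00197) for Col9a2. For Col5a3 it was 0.12 (SE 0.18, adjusted p = 0.707). Among members with a negative difference, Col18a1 had the smallest p, at −0.36 (SE 0.056, adjusted p = 0.00013), under the limit on fold change, and Col17a1 was at −0.84 (adjusted p = 0.122). Without 48 h kd replicate 2, 13 members were higher and 0 lower.

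**Figure D4:**
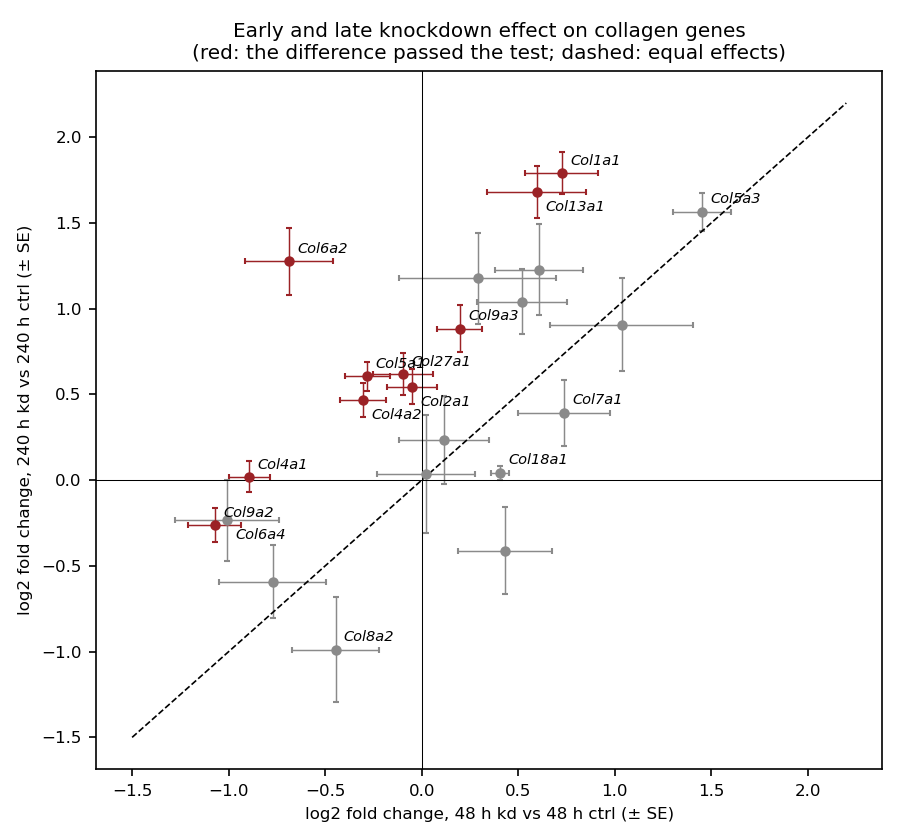
Log2 fold change of the 23 collagen genes tested at both times, at 48 h (horizontal axis, ± SE) against that at 240 h (vertical axis, ± SE), with red for genes whose difference passed the test and a dashed line for equal effects. The red genes lie above the line, with Col6a2 at −0.69 and 1.28 farthest from it and Col5a3 at 1.45 and 1.57 next to it.

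The pluripotency genes summed to 5085 to 5554 RPM in 240 h ctrl and 4483 to 4563 after 240 h kd, where 3 of the 8 were lower (Klf4, Esrrb and Zfp42). Over all genes, 9.76% were called higher and 7.95% lower at 240 h. With 2 to 8 genes tested in a cell type list, nothing particular to a list is read from such counts. Of 10 genes of primitive and parietal endoderm, 7 were tested and 5 were higher (Cubn, Pdgfra, Gata6, Amn and Dab2) and 1 lower (Sox7). Their summed level was 19.1 to 20.4 RPM in 240 h ctrl and 32.2 to 34.2 after 240 h kd, and 12.2 to 15.6 in the 48 h and 72 h libraries. None of the 10 was at 0 in a group, and 3 had fewer than 10 reads on average at 240 h. Of the 6 mesoderm genes, 2 of 3 tested were higher (Hand1 and Mixl1) and 1 lower (Eomes) at 240 h, with a summed level of 7.06 to 8.2 in 240 h ctrl and 8.72 to 10.4 after 240 h kd. Of the 10 fibroblast genes, 1 of 3 tested (Twist1) was higher, with sums of 6.64 to 7.31 and 7.97 to 9.44, and Fap and Dpt were at 0 after 240 h kd. Earlier, 1 of 8 pluripotency genes, 1 of 7 endoderm genes, 1 of 3 fibroblast genes and 1 of 2 mesoderm genes were lower at 48 h. Over all genes 4.90% were lower there. At 72 h, Sox7 and Thy1 were lower and Cubn and Pdgfrb higher, and 1 pluripotency gene was higher and 1 lower. Of all genes, 12.3% were higher and 10.0% lower at 72 h. The pluripotency genes summed to 6051 to 6248 RPM after 72 h kd and to 5517 to 5827 in 48 h ctrl. Hand1 at 240 h passed the minimum on reads only through kd, and Sox7 at 72 h only through ctrl. The part of other cell types in the 240 h changes of the collagen genes was not tested. In bulk libraries, fewer cells that express a gene and less RNA of it per cell cannot be told apart.

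The lists of genes that make and handle collagen are described by their counts, to be set beside the 9.23%, 22.3% and 17.7% of all genes called at 48 h, 72 h and 240 h. With 7 to 17 genes tested in a list, nothing particular to a list is read from these counts. Of 19 genes for biosynthetic enzymes and chaperones, 1 of 16 tested was higher and 1 lower at 48 h, 1 higher and 3 lower at 72 h, and 1 of 17 higher and 2 lower at 240 h. Serpinh1, the collagen chaperone HSP47, rose by 0.64 (SE 0.05, adjusted p = 1.02e-10) at 72 h. Fkbp10, a prolyl isomerase of procollagen folding, was lower by 1.27 on the log2 scale (SE 0.055, adjusted p = 1.85e-15) at 72 h and by 1.13 (SE 0.06, adjusted p = 8.97e-11) at 240 h. P3h4, a partner in collagen lysine hydroxylation, was lower at all 3 times, by 0.64 (adjusted p = 0.000291), 0.92 (adjusted p = 2.95e-09) and 1.37 (adjusted p = 3.84e-09). The prolyl hydroxylase genes P3h3 at 48 h (0.81, adjusted p = 0.00239) and P3h2 at 240 h (1.43, adjusted p = 0.00122) were higher, of which P3h2 passed the minimum on reads only through kd (means of 23 and 7 reads).

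Of 19 genes for secretion, processing and cross-linking, 3 of 16 tested were higher and 2 lower at 48 h, 4 higher and 1 lower at 72 h, and 3 of 17 higher and 2 lower at 240 h, of which Loxl4 was higher and passed only through kd. Bmp1, the protease that removes the C-terminal propeptide of procollagen, was higher at 72 h by 1.17 (SE 0.13, adjusted p = 5.39e-08) and at 240 h by 1.34 (SE 0.12, adjusted p = 9.69e-08). Pcolce2, an enhancer of that protease, was lower by 0.74 (adjusted p = 1.26e-05), 1.28 (adjusted p = 8.57e-14) and 1.75 (SE 0.068, adjusted p = 1.9e-12) at the 3 times. The related protease gene Tll1 was higher at 48 h by 0.86 (adjusted p = 0.0066) and lower at 240 h by 1.35 (adjusted p = 0.000217). The lysyl oxidase gene Loxl2, which cross-links type IV collagen, was lower at 48 h by 1.05 (adjusted p = 0.00293). Loxl1 was higher at 72 h by 0.96 (adjusted p = 6.43e-06).

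Of 11 collagen receptor genes, 8 were tested at 48 h and 72 h and 9 at 240 h, of which 1 was lower at 48 h, 3 were lower at 72 h, and 1 was higher and 1 lower at 240 h. Adgrg1, a receptor for type III collagen, was lower at each time, by 1.77 (SE 0.11, adjusted p = 3.3e-07), 2.63 (SE 0.17, adjusted p = 4.02e-12) and 1.39 (SE 0.13, adjusted p = 1.25e-07). Itga10, a collagen-binding integrin chain, was lower by 0.85 at 72 h (adjusted p = 3.79e-08), and Lair1, an inhibitory receptor of leukocytes, was higher at 240 h by 0.93 (adjusted p = 0.00153). Of 12 genes for degradation and its inhibitors, 2 of 8 tested were lower at 48 h, 1 of 7 was lower at 72 h, and 2 of 8 were higher and 1 lower at 240 h. Mmp14, the membrane-bound collagenase, was lower by 0.92 at 72 h (adjusted p = 8.28e-12) and at 240 h by 0.84 (adjusted p = 7.74e-08). Mmp2, which degrades type IV collagen, was lower by 0.67 at 48 h (adjusted p = 5.28e-05), and Mmp9, with the same substrate, was higher at 240 h by 1.88 (SE 0.26, adjusted p = 1.23e-05).

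Of 11 genes for other components of basement membranes, all tested, 1 was higher and 3 lower at 48 h, 3 higher and 1 lower at 72 h, and 1 higher and 3 lower at 240 h. Lama1, the laminin α1 chain of embryonic basement membranes, was lower by 2.04 (SE 0.056, adjusted p = 8.09e-10), 2.56 (SE 0.064, adjusted p = 5.17e-20) and 2.06 (SE 0.054, adjusted p = 1.23e-14) at the 3 times. Lamc1, the common laminin γ1 chain, was higher at 48 h by 0.77 (SE 0.053, adjusted p = 8.03e-07), and Lamb2 at 72 h by 0.93 (adjusted p = 6.26e-14). Nid2, which links laminin to type IV collagen, was lower at 48 h by 0.89 (adjusted p = 1.36e-07), when Col4a1 was lower too. At 240 h, Sparc, a collagen-binding matrix protein, was higher by 0.84 (SE 0.057, adjusted p = 2.53e-09) and Agrn, a heparan sulphate proteoglycan, lower by 1.23 (SE 0.072, adjusted p = 3.82e-10).

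The genes whose log2 levels followed Col4a1 most closely over the 15 libraries were Dlc1 (Pearson r = 0.956), Arih2 (0.955), Ticrr (0.949), Ppm1f (0.949) and Iqgap1 (0.945), of 16369 genes compared. The libraries share the 5 groups, so the points are not independent, and the values are a description. Dlc1 is on the same chromosome as Col4a1.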

How the data were processed

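Expression was measured by RNA-seq in 15 libraries of 5 groups of 3. The authors aligned reads with STAR 2.7.0c to GRCm38 (per the labels) and deposited FPKM per gene, computed over the whole gene span with 1 total per library. They used DESeq2 1.30.0 in R 4.0.3 for tests not used here. The annotation used for counting is not given in the sources used here. Of 55228 listed genes, 96.5% matched GENCODE release M21. The product of FPKM, span and total gave whole reads for 100% of values (tolerance 0.001). Sums over genes exceeded the totals by 7.38% to 8.34%, since overlapping genes share reads. Strand was not used in counting: an enclosing gene had at least the reads of the nested gene in 381 of 381 same-strand and 415 of 415 opposite-strand pairs.

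Levels as log2(RPM + 0.1), with RPM the reads per 1000000 of the total, were tested wherever the libraries compared averaged 10 or more reads, with limma 3.58.1 in R 4.3.3 (trended prior variance, two-sided, Benjamini-Hochberg over all genes tested). Fold changes on this scale understate changes of low genes. Only the groups compared entered a fit. The test was tried on simulated data: of 195 genes changed 2-fold at 48 h, 86.67% were recovered with 7 false calls among 16056 genes. The simulation gave all genes the same dispersion and set no library apart, and its changed genes were drawn over all read levels. Its rates therefore do not describe the tests of the collagen genes, most of which have few reads. Named were the collagen genes called in at least 1 knockdown comparison, Col4a1 and Col4a2, up to 5 others by reads, and at most 2 genes per list, comparison and direction. The members and lists were chosen with earlier results of these data known. Reads carry no molecular identifiers, so counts do not measure independent molecules. Alternatives covered scaling, pseudocount, minimum, prior, tool, libraries in the fit, replicate block, omitted libraries and, added after seeing the data, reads of overlapping genes. The reads of an overlapping gene were taken away whole, also those outside the member, unless only a small part of that gene overlapped. Other matrix and cell type lists were counted in the same fits.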

Additional observations from a re-analysis of the deposited data

Results flagged for a closer look

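For 10 of 25 collagen genes tested, the knockdown effect at 240 h differed from that at 48 h by the interaction term over the 12 libraries of the 4 groups. Over all genes 10.5% were called in this test, 5.47% higher and 5.06% lower. The difference, 240 h minus 48 h on the log2 scale, was 1.97 for Col6a2, 1.09 for Col13a1, 1.07 for Col1a1, 0.91 for Col4a1, 0.89 for Col5a1 and 0.81 for Col9a2. It was 0.77 for Col4a2, 0.72 for Col27a1, 0.69 for Col9a3 and 0.59 for Col2a1. All 10 differences were positive, and the largest adjusted p among them was 0.0207 (limma, Col13a1). For Col6a2, Col5a1 and Col4a2, all 3 libraries of 48 h kd lay below their ctrl libraries and all 3 of 240 h kd lay above theirs. How many of all genes part in this way was not counted, so nothing particular to collagen genes is read from it. Of the 3, only Col6a2 was called at both times, and its 48 h call was lost in 5 of 6 fits with 1 library left out. Col4a1 and Col9a2 were also lower in each 48 h kd library than in each 48 h ctrl library. For Col9a3, 240 h ctrl was itself lower than 48 h ctrl, by −0.69 on the log2 scale. The endoderm genes summed to 32.2 to 34.2 reads per 1000000 (RPM) in 240 h kd and to 12.2 to 14.1 in 48 h kd, and their part in these differences was not tested.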

How the results depend on the processing

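The collagen genes called numbered 7 at 48 h, 12 at 72 h, 17 at 240 h, 3 between the ctrl groups, 7 between 72 h kd and 48 h kd, and 10 for the interaction. With a minimum of 50 reads they were 4 at 48 h, 6 at 72 h, 7 at 240 h and 4 between the kd groups, since fewer genes were tested. With log2(FPKM + 0.1) and a minimum of 0.5 FPKM, which leaves few members, they were 1, 1, 1, 0, 2 and 1 in the order above. A pseudocount of 1 gave 11 at 240 h and 1 between the ctrl groups. Between the ctrl groups, limma called 0 without the trend (11 at an unadjusted p under 0.05, and 2 by limma voom) and 6 with no minimum fold change. In the FPKM setting 2 members had an unadjusted p under 0.05 there. Leaving out 1 library gave 3 to 9 at 48 h, 12 to 13 at 72 h, 10 to 17 at 240 h, 1 to 5 between the ctrl groups, 7 to 10 between the kd groups and 8 to 13 for the interaction. Calls held without any 1 library for 3 of 7 at 48 h, 12 of 12 at 72 h and 9 of 17 at 240 h. The replicate numbers did not pair the libraries (correlations of deviations −0.192 to 0.174), and the replicate block gave 5, 12, 17, 4, 7 and 10. Against 240 h ctrl, 9 members were higher and 2 lower at 72 h, a count for which the share of all genes is not given here. For single genes, 853 values kept their side of the threshold under other settings, 25 lost a call and 10 gained one, and none changed direction. The causes were not tested. Most members have under 100 reads a library, which limits the detection of small changes.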
